A study of Mus musculus with 16 samples.

Results

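The sites described here are the tall C/EBPα peaks of mouse adipocytes with at least 2-fold more C/EBPα signal after rosiglitazone than after its vehicle, DMSO. They numbered 1670 of the 30517 C/EBPα peaks outside the mitochondrial chromosome (5.47%). A peak was taken when its C/EBPα signal was at least 25.4 units in the rosiglitazone library and its log2 ratio of rosiglitazone to DMSO, with 1 unit added to each value, was at least 1. These C/EBPα values chose the sites, so they are given below as a description and support nothing. A further 7004 peaks reached the same height without a 2-fold difference, and these tall non-gaining peaks are the comparison used most below. The gaining sites made up 19.3% of all 8674 tall peaks.

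The cells were 3T3-L1 adipocytes, fat cells made in culture from an established mouse fibroblast line, and came from that line alone. Rosiglitazone cells received 1 μM rosiglitazone in 0.1% DMSO for 1 h on day 7 of differentiation, and DMSO cells received 0.1% DMSO alone for 1 h. All cells had been differentiated beforehand with dexamethasone, isobutylmethylxanthine, insulin and serum. Chromatin immunoprecipitation with sequencing was compared for C/EBPα, PPARγ, MED1 and CBP, each with 1 library column for rosiglitazone and 1 for DMSO. No difference between treatments therefore has a replicate check. The files hold binding signals and no expression, so adipocyte marker genes were not examined.

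C/EBPα is a leucine zipper transcription factor that, together with PPARγ, drives and maintains the fat cell programme, and each of the genes for these factors is activated by the other factor. PPARγ is a nuclear receptor that binds DNA as a heterodimer with RXR, and rosiglitazone is its synthetic agonist. Ligand binding favours recruitment of coactivators, among them the Mediator complex, which PPARγ contacts through its MED1 subunit, and the histone acetyltransferase CBP.

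Signals are the tag values per peak as the authors scaled them. Each value was a whole multiple of what 1 tag was worth, so tags could be recovered for 100% of values. In the C/EBPα libraries 1 tag was worth 1.27 units in rosiglitazone and 2.21 units in DMSO, so the rosiglitazone library was the deeper one and the height minimum equalled 20 tags. In the PPARγ libraries 1 tag was worth 0.831 units in rosiglitazone and 0.879 units in DMSO. The coactivator libraries were shallower in rosiglitazone, at 7.65 units a tag against 3.49 units in DMSO for MED1 and 6.06 units a tag against 2.21 units in DMSO for CBP. Intervals below are exact 95% intervals from tag counts, apart from those within classes of similar tags, which are approximate. All these intervals cover counting error only, because they use the tags of 1 column per treatment. Tags carry no molecular identifiers, so repeated copies of a fragment could not be told apart by them. Positions are on the mm9 build as the files give them, and genes and sequence at the sites were not used here.

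C/EBPα itself ranged at the gaining sites between 25.5 and 373 units in rosiglitazone, with a median of 36.9 units, and between 0 and 137 units in DMSO, with a median of 13.3 units. In tags the medians were 29 in rosiglitazone and 6 in DMSO. Most gaining sites were thus modest peaks after rosiglitazone that rested on few tags in DMSO. In DMSO 15 sites had 0 C/EBPα tags and 294 had 1 to 3 tags, whereas 205 sites had at least 25.4 units there too. The log2 ratio had quartiles of 1.20, 1.43 and 1.90 and reached 5.73.

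Counting noise was set beside these values because the libraries differed in depth. If each of the 30517 peaks had shared 1 common C/EBPα ratio, counting alone would have placed an expected 362 peaks past the rule, and the observed number was 4.61 times that. For log2 ratios of 1 to 1.5, 927 sites were observed and 286 expected, 3.24 times as many. For 1.5 to 2 there were 402 sites and 59.8 expected, for 2 to 3 there were 259 and 13.7, and for 3 or more 82 and 2.51, which is 32.7 times as many. Taken singly, 1305 sites (78.1%) had a counting interval of the C/EBPα ratio wholly above 1. Another 365 had an interval that included 1, and 182 had a lower bound above 2. All sites with a log2 ratio of 1.5 or more were among the 1305. These intervals use the values that chose the sites, so they describe the sites and test nothing. Both calculations cover tag counting and not variation between chromatin preparations.

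**Figure D1:**
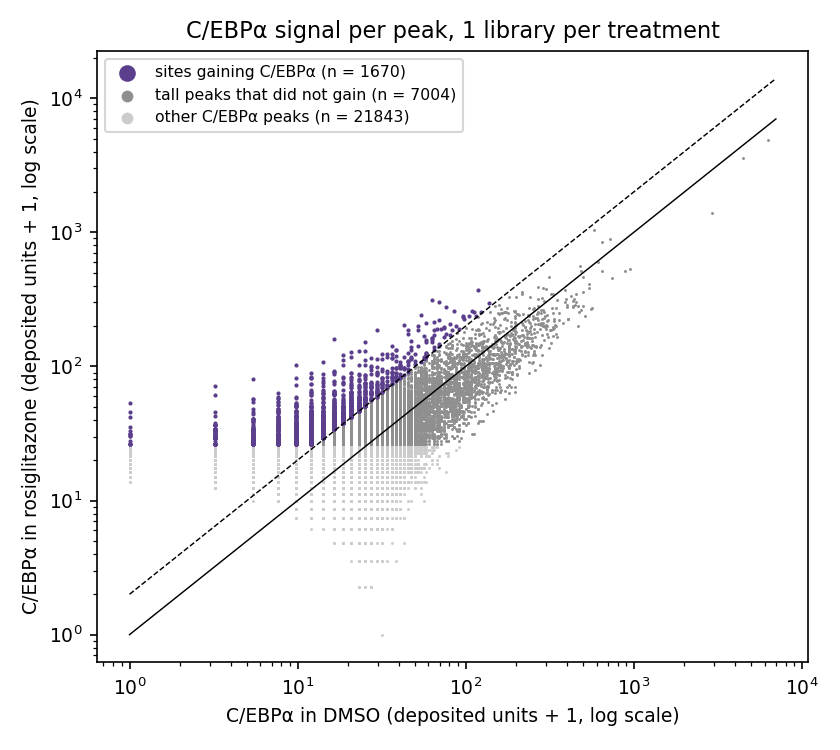
C/EBPα signal of each of the 30517 peaks in rosiglitazone (vertical axis) against DMSO (horizontal axis), in deposited units plus 1 on log scales. The 1670 gaining sites (purple) lie above the dashed 2-fold line and the height minimum of 25.4 units, the 7004 tall non-gaining peaks are dark grey, the solid line marks equal signal, and the vertical stripes at the left are sites with few whole tags in DMSO.

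The edges of the rule were populated on both sides. Within 0.1 of the log2 threshold lay 226 sites just inside and 265 tall peaks just outside. Just inside, a site on chromosome 8 at 47489907-47490137 had 107 units in rosiglitazone and 53.0 units in DMSO. Just outside, a peak on chromosome 15 at 63833026-63833256 had 98.1 units in rosiglitazone and 48.6 units in DMSO. At the height minimum, 135 sites stood at exactly 20 tags, and 3181 further peaks were at least 2-fold higher but too low to be taken. The site just above that edge on chromosome 5 at 123564357-123564587 had 25.5 units in rosiglitazone and 11.0 units in DMSO. The peak just below it on chromosome 7 at 96248212-96248442 had 24.2 units in rosiglitazone and 11.0 units in DMSO. Membership of these sites thus turned on 1 or a few tags.

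PPARγ, which the rule did not use, was also higher after rosiglitazone at the gaining sites. Summed over the 1670 sites, PPARγ was 1.87 times as high in rosiglitazone as in DMSO (interval 1.84 to 1.90). The median site had 11.6 units in rosiglitazone and 6.16 units in DMSO. At the tall non-gaining peaks the summed ratio was 1.62 (1.61 to 1.63), and at the 28847 C/EBPα peaks outside the gaining set it was 1.56. The ratio at gaining sites was thus 1.15 times that at tall non-gaining peaks (interval 1.13 to 1.17), a difference beyond counting error but small beside the general elevation of PPARγ. Compared within classes of similar total PPARγ tags, it was 1.17 times as high (1.15 to 1.19). Against the tall peaks with a C/EBPα log2 ratio of 0.5 to 1 it was 1.23 times as high (1.20 to 1.25).

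Site by site, PPARγ was at least 2-fold higher in rosiglitazone at 722 gaining sites (43.2%), against 30.8% of all C/EBPα peaks. It was at least 2-fold lower at 93 (5.57%), against 7.09% of all peaks. At tall non-gaining peaks these shares were 33.9% and 4.78%. The median log2 ratio of PPARγ over all C/EBPα peaks was 0.50. Relative to that median, 515 gaining sites (30.8%) were at least 2-fold higher, against 17.2% of all peaks, and 230 (13.8%) at least 2-fold lower, against 17.3%. Of the 888 gaining sites with at least 20 PPARγ tags over both treatments, 408 (45.9%) were 2-fold higher, against 34.0% of all peaks with as many tags. Lower by 2-fold were 30 (3.38%), against 2.93%. At tall non-gaining peaks with as many tags these shares were 34.7% and 2.41%. At 585 of the 1663 gaining sites with a PPARγ tag (35.2%) the counting interval lay wholly above 1. That share was 19.6% over all peaks with a tag and 29.5% at tall non-gaining ones. A wholly lower interval was found at 54 gaining sites (3.25%), against 2.08% of all peaks and 3.00% of tall non-gaining ones. PPARγ was without a tag in DMSO at 127 gaining sites (7.60%) and at 227 tall non-gaining peaks (3.24%), against 9.70% of all peaks, most of which are lower ones.

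The size of the PPARγ ratio went with the size of the C/EBPα ratio inside the gaining set. The summed PPARγ ratio was 1.71 at sites with a C/EBPα log2 ratio of 1 to 1.5, 1.96 at 1.5 to 2, 2.35 at 2 to 3 and 2.87 at 3 or more. At the 182 sites whose C/EBPα lower bound exceeded 2, PPARγ was 3.15 times as high in rosiglitazone as in DMSO (3.00 to 3.31), and 130 of them (71.4%) were at least 2-fold higher for PPARγ. Below the threshold there was no such order, since the ratio was 1.52 just under it and 1.83 at tall peaks with a C/EBPα log2 ratio of -1 to -0.5. Across the 888 gaining sites with at least 20 PPARγ tags the relation was loose site by site, with a Spearman rho of 0.17 and a Pearson r of 0.19 across sites of the same libraries. Across 4266 tall non-gaining peaks rho was -0.11.

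**Figure D2:**
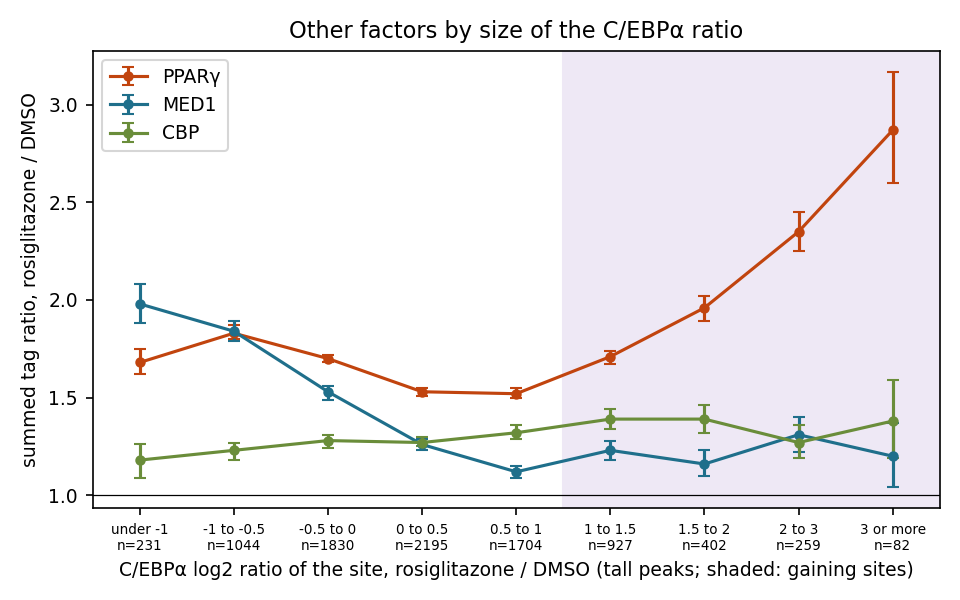
Summed tag ratio of rosiglitazone to DMSO (vertical axis) for PPARγ, MED1 and CBP at tall C/EBPα peaks, binned by the log2 ratio of C/EBPα (horizontal axis, with the number of peaks in each bin). Bars are exact 95% counting intervals and the shaded bins are the gaining sites, where PPARγ goes up to 2.87 while MED1 stays between 1.16 and 1.31 and CBP between 1.27 and 1.39.

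MED1 had a lower ratio at gaining sites than at the tall non-gaining peaks as a whole, but not than at those most like them. Its summed ratio of rosiglitazone to DMSO was 1.22 at gaining sites (1.19 to 1.26) and 1.44 at tall non-gaining peaks (1.43 to 1.46). The gaining sites' ratio was 0.847 times that of the tall non-gaining peaks (0.822 to 0.874). Within classes of similar total MED1 tags it was 0.873 times (0.846 to 0.900). The MED1 ratio of tall non-gaining peaks was lower where their C/EBPα ratio was higher. It was 1.98, 1.84 and 1.53 at peaks with a C/EBPα log2 ratio under -1, of -1 to -0.5 and of -0.5 to 0. At peaks with a C/EBPα log2 ratio of 0 to 0.5 it was 1.26 (1.23 to 1.29), and at those of 0.5 to 1, just under the threshold, 1.12 (1.09 to 1.15). Within the gaining set it lay between 1.16 and 1.31 by bin. Against the tall peaks of 0.5 to 1 the gaining sites' MED1 ratio was 1.09 times as high (1.05 to 1.14), and against those of 0 to 1 it was 1.02 times as high (0.986 to 1.05). The lower MED1 ratio was therefore not particular to gaining sites. The median gaining site had 15.3 units in rosiglitazone and 14.0 units in DMSO, which is 2 tags and 4 tags, so single sites say little. MED1 was at least 2-fold higher at 395 gaining sites (23.7%), against 24.4% of all C/EBPα peaks, and at least 2-fold lower at 485 (29%), against 27.0%. Those shares were close to those over all peaks. At tall non-gaining peaks they were 28.5% and 25.9%. Of the tall peaks with a C/EBPα log2 ratio of 0.5 to 1, 22.7% were 2-fold higher.

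Counts of better covered sites were set beside those over all peaks. Among the 333 gaining sites with at least 20 MED1 tags, 81 (24.3%) were 2-fold higher, against 37.8% of all peaks with as many tags. Lower by 2-fold were 53 (15.9%), against 9.70%. At tall non-gaining peaks with as many tags, of any C/EBPα ratio, these shares were 35.3% and 11.5%. Tall peaks with a C/EBPα log2 ratio of 0.5 to 1 were not counted separately at this coverage. The counting interval lay above 1 at 132 of the 1495 gaining sites with a MED1 tag (8.83%), against 9.72% of all such peaks. It lay below 1 at 50 (3.34%), against 2.43%. At tall non-gaining peaks with a MED1 tag these shares were 13.5% and 4.34%. Relative to the summed MED1 ratio of 1.45 at the other C/EBPα peaks, 273 gaining sites (16.3%) were 2-fold higher, against 17.0% of all peaks, and 582 (34.9%) were 2-fold lower, against 30.2%.

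CBP was closer to its level elsewhere. Its summed ratio of rosiglitazone to DMSO was 1.37 at gaining sites (1.34 to 1.41) and 1.28 at tall non-gaining peaks (1.26 to 1.29). The ratio at gaining sites was 1.07 times that at tall non-gaining peaks (1.04 to 1.11), and 1.04 times that at tall peaks with a C/EBPα log2 ratio of 0.5 to 1 (1.00 to 1.08). The median gaining site had 12.1 units in rosiglitazone and 13.3 units in DMSO. CBP was at least 2-fold higher at 420 gaining sites (25.1%), against 20.8% of all C/EBPα peaks, and at least 2-fold lower at 393 (23.5%), against 28.4%. Relative to the summed CBP ratio of 1.24 at the other C/EBPα peaks, 287 (17.2%) were 2-fold higher, against 14.6% of all peaks, and 433 (25.9%) were 2-fold lower, against 30.4%. Of 423 gaining sites with at least 20 CBP tags, 96 (22.7%) were 2-fold higher, against 19.1% of all peaks with as many tags. Lower by 2-fold were 18 (4.26%), against 6.62%. At tall non-gaining peaks with as many tags these shares were 17.5% and 5.84%. The counting interval lay above 1 at 162 of the 1514 gaining sites with a CBP tag (10.7%), against 6.80% of all such peaks. It lay below 1 at 13 (0.859%), against 0.832%. At tall non-gaining peaks with a CBP tag these shares were 9.24% and 1.23%. Of all tall non-gaining peaks, 22.4% were at least 2-fold higher for CBP and 23.6% at least 2-fold lower.

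Sites chosen by the mirror rule, with at least 25.4 units in DMSO and C/EBPα at least 2-fold lower in rosiglitazone, numbered 1271. Their PPARγ was also higher in rosiglitazone, with a summed ratio of 1.66 (1.63 to 1.70). The gaining sites' PPARγ ratio was 1.12 times that of the losing sites (1.1 to 1.16). For MED1 the order was opposite and the gap wider, since the summed ratio was 1.22 at gaining sites and 1.94 (1.89 to 2.0) at losing sites, so that the gaining sites' ratio was 0.631 times that of the losing sites (0.606 to 0.656). For CBP the ratio was 1.37 at gaining sites and 1.19 (1.15 to 1.24) at losing sites, so that the gaining sites' ratio was 1.15 times as high (1.1 to 1.21).

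**Figure D3:**
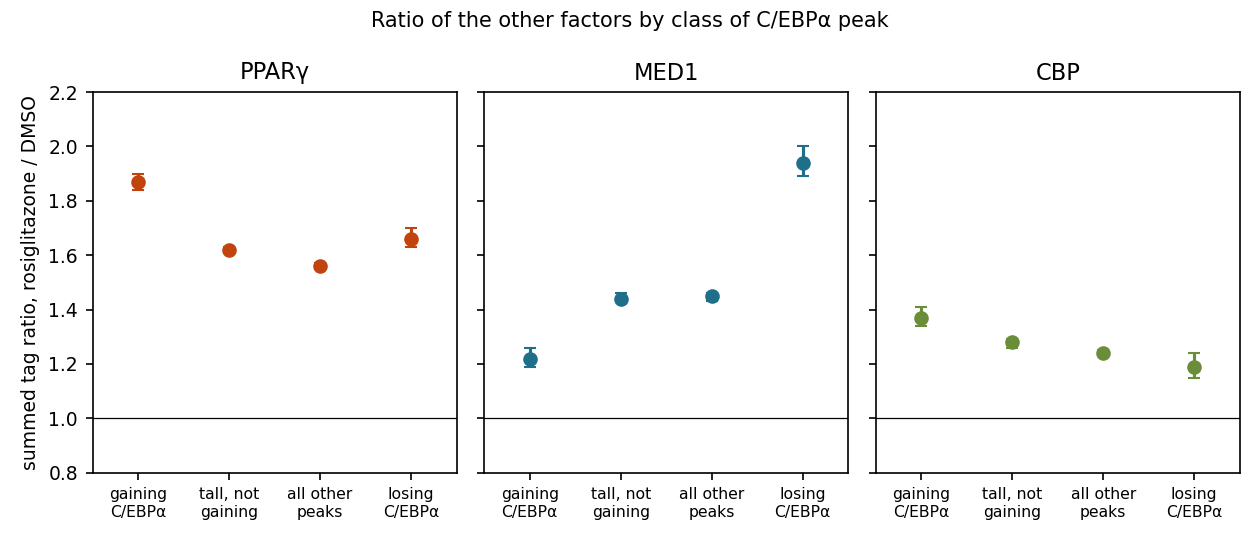
Summed tag ratio of rosiglitazone to DMSO (vertical axis) for PPARγ, MED1 and CBP in 4 classes of C/EBPα peak, with exact 95% counting intervals from 1 library per treatment; tall non-gaining and losing peaks are also part of all other peaks. Gaining sites are highest for PPARγ at 1.87 and for CBP at 1.37. For MED1 they are lowest of these classes at 1.22, where losing sites are highest at 1.94. Tall peaks with a C/EBPα log2 ratio of 0.5 to 1, not drawn as a class, had a MED1 ratio of 1.12.

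The 3 factors were only partly higher at the same gaining sites. PPARγ and MED1 were both at least 2-fold higher at 184 gaining sites (11.0%) and at 826 tall non-gaining peaks (11.8%), against 9.38% of all peaks. PPARγ was at least 2-fold higher with MED1 at least 2-fold lower at 159 gaining sites (9.52%). The same was seen at 340 tall non-gaining peaks (4.85%) and at 6.4% of all peaks. Few of these calls went beyond counting error. A PPARγ interval above 1 with a MED1 interval below 1 was found at 11 gaining sites (0.659%). It was found at 29 tall non-gaining peaks (0.414%) and at 0.203% of all peaks. PPARγ, MED1 and CBP were all at least 2-fold higher at 64 gaining sites (3.83%) and at 238 tall non-gaining peaks (3.4%), against 2.41% of all peaks. Neither coactivator had a tag at 63 gaining sites (3.77%) and at 204 tall non-gaining peaks (2.91%), against 10.0% of all peaks.

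A PPARγ peak overlapped 874 gaining sites (52.3%, interval 49.9 to 54.8), against 36.2% of all C/EBPα peaks and 58.6% of tall non-gaining peaks (57.4 to 59.8). The intervals of gaining sites and tall non-gaining peaks did not overlap, and the share was lower at gaining sites. Across tall non-gaining peaks the share also fell as the C/EBPα ratio rose. It was 68.8% at a C/EBPα log2 ratio under -1 and 55.6% at 0.5 to 1. Losing sites, chosen by their height in DMSO, had a share of 47.8% (45.1 to 50.6). A lower share was therefore not particular to gaining sites. The share went with height: for peaks of 25.5 to 29.3 units of C/EBPα in rosiglitazone it was 44.0% at gaining sites and 44.6% at tall non-gaining peaks, and above 52.2 units it was 68.6% at gaining sites and 72.9% at tall non-gaining peaks. Between these heights the share was 42.3% at gaining sites and 49.5% at tall non-gaining peaks for 29.3 to 36.9 units. For 36.9 to 52.2 units it was 53.8% and 59.6%. Within each of 4 such height bins the share was thus lower at gaining sites. The intervals of both classes overlapped or met, which does not show that the shares were equal. Where the peaks overlapped, their centres lay a median of 34 bp apart at gaining sites and 37 bp apart at tall non-gaining peaks.

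At gaining sites the MED1 ratio differed more between sites with and without a PPARγ peak than the PPARγ ratio did. At the 874 gaining sites with a PPARγ peak, PPARγ was 1.89 times as high in rosiglitazone as in DMSO, MED1 1.31 times (1.27 to 1.36) and CBP 1.44 times. At the 796 gaining sites without one, PPARγ was 1.75 times as high, MED1 0.960 times (0.903 to 1.02) and CBP 1.19 times. The ratio with a PPARγ peak over that without one was 1.08 for PPARγ (1.03 to 1.13), 1.37 for MED1 (1.28 to 1.47) and 1.21 for CBP (1.13 to 1.28). Gaining sites without a PPARγ peak had a median of 1 MED1 tag in rosiglitazone and 2 in DMSO. At tall non-gaining peaks MED1 had a ratio of 1.50 with a PPARγ peak and 1.26 without one, without regard to their C/EBPα ratio. Their PPARγ ratios were 1.63 with a PPARγ peak and 1.57 without one, and their CBP ratios 1.32 and 1.13. The MED1 ratio thus differed more than the PPARγ ratio at tall non-gaining peaks too.

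The same held by distance. At the 561 gaining sites whose centre lay under 50 bp from the centre of a PPARγ peak, the ratios were 1.84 for PPARγ, 1.35 for MED1 and 1.41 for CBP. At the 298 gaining sites lying 1 to 10 kb from the nearest PPARγ peak, MED1 was lower in rosiglitazone, with a ratio of 0.827 (0.745 to 0.918), while PPARγ still had a ratio of 1.80. Tall non-gaining peaks at that distance, without regard to their C/EBPα ratio, had a MED1 ratio of 1.17 (1.12 to 1.22). At the 357 gaining sites farther than 10 kb from a PPARγ peak the MED1 ratio was 0.926, with an interval that included 1 (0.832 to 1.03). Signals were low at 1 to 10 kb, with a median MED1 signal at gaining sites of 7.65 units in rosiglitazone and 10.5 units in DMSO. In the bin of 210 bp to 1 kb the PPARγ ratio was 1.85 at both the gaining sites and the tall non-gaining peaks.

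**Figure D4:**
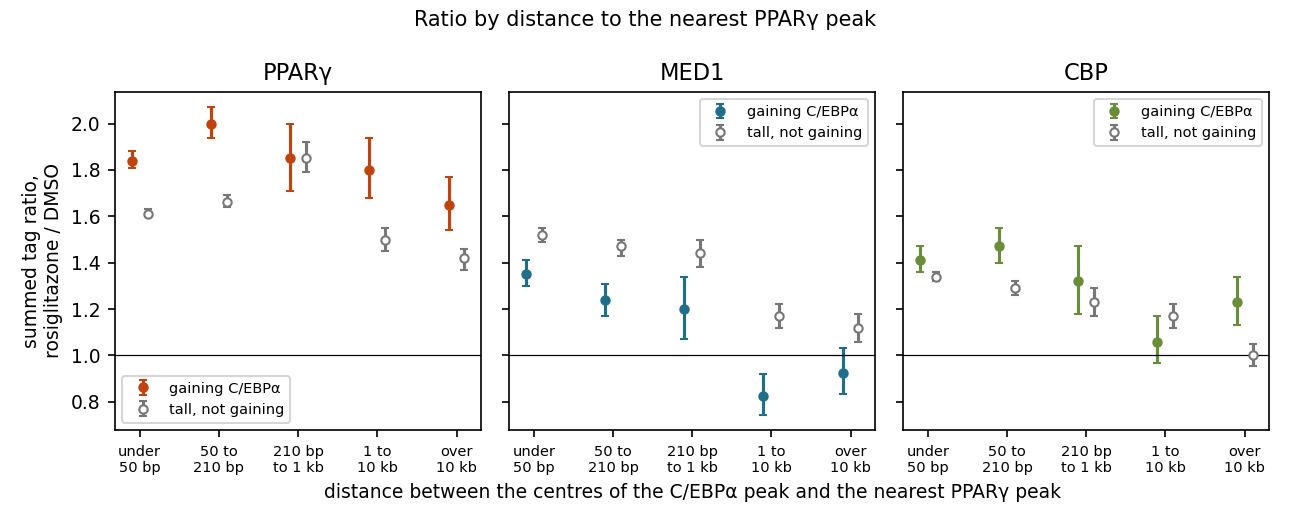
Summed tag ratio of rosiglitazone to DMSO (vertical axis) for PPARγ, MED1 and CBP by distance between the centres of the C/EBPα peak and the nearest PPARγ peak (horizontal axis), with exact 95% counting intervals. Filled points are gaining sites and open points tall non-gaining peaks of any C/EBPα ratio. MED1 is lower at gaining sites in all 5 distance bins, at 0.827 for 1 to 10 kb. Beyond 10 kb it is 0.926, with an interval reaching 1.03. Over all distances the MED1 ratio at gaining sites was 1.09 times that at tall peaks with a C/EBPα log2 ratio of 0.5 to 1.

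The 10 gaining sites with the highest C/EBPα signal in rosiglitazone all overlapped a PPARγ peak, as did 72.9% of tall non-gaining peaks above 52.2 units. PPARγ was higher in rosiglitazone at 10 of 10, CBP at 8 and MED1 at 3. Summed over all C/EBPα peaks the ratios were also above 1, at 1.59 for PPARγ, 1.25 for CBP and 1.43 for MED1. The share of all peaks that were higher by any amount is not given here. At 1 of these 10 sites, on chromosome 2 at 50542889-50543119, the PPARγ interval included 1 (0.777 to 2.56). The highest, on chromosome 6 at 90464458-90464688, had 373 units of C/EBPα in rosiglitazone and 117 units in DMSO. PPARγ there was 43.2 units in rosiglitazone and 3.52 units in DMSO, a ratio of 12.3 (4.52 to 46.8). The coactivators differed by less than counting error at that site, with MED1 at 122 units in rosiglitazone and 94.4 units in DMSO and CBP at 60.6 units in rosiglitazone and 57.5 units in DMSO.

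A second site, on chromosome 1 at 162009583-162009813, had the same shape, with 301 units of C/EBPα in rosiglitazone and 68.5 units in DMSO. Its PPARγ was 44.9 units in rosiglitazone and 3.52 units in DMSO, a ratio of 12.8 (4.71 to 48.5), while its MED1 was 38.3 units in rosiglitazone and 48.9 units in DMSO. On chromosome 5 at 111032079-111032309, C/EBPα was 313 units in rosiglitazone and 61.8 units in DMSO. All 4 factors were higher in rosiglitazone at this chromosome 5 site, where PPARγ had a ratio of 3.78 (2.44 to 6.06) and CBP one of 1.73 (1.11 to 2.68). On chromosome 15 at 57817143-57817373, MED1 was 321 units in rosiglitazone and 182 units in DMSO, a ratio of 1.77 (1.15 to 2.71), and at the other sites of these 10 the MED1 interval included 1. The chromosome 9 site at 109751949-109752179 had 48.5 units of CBP in rosiglitazone and 95.04 units in DMSO, with an interval that included 1 (0.207 to 1.1), while its PPARγ had a ratio of 5.44 (2.54 to 13.3).

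**Figure D5:**
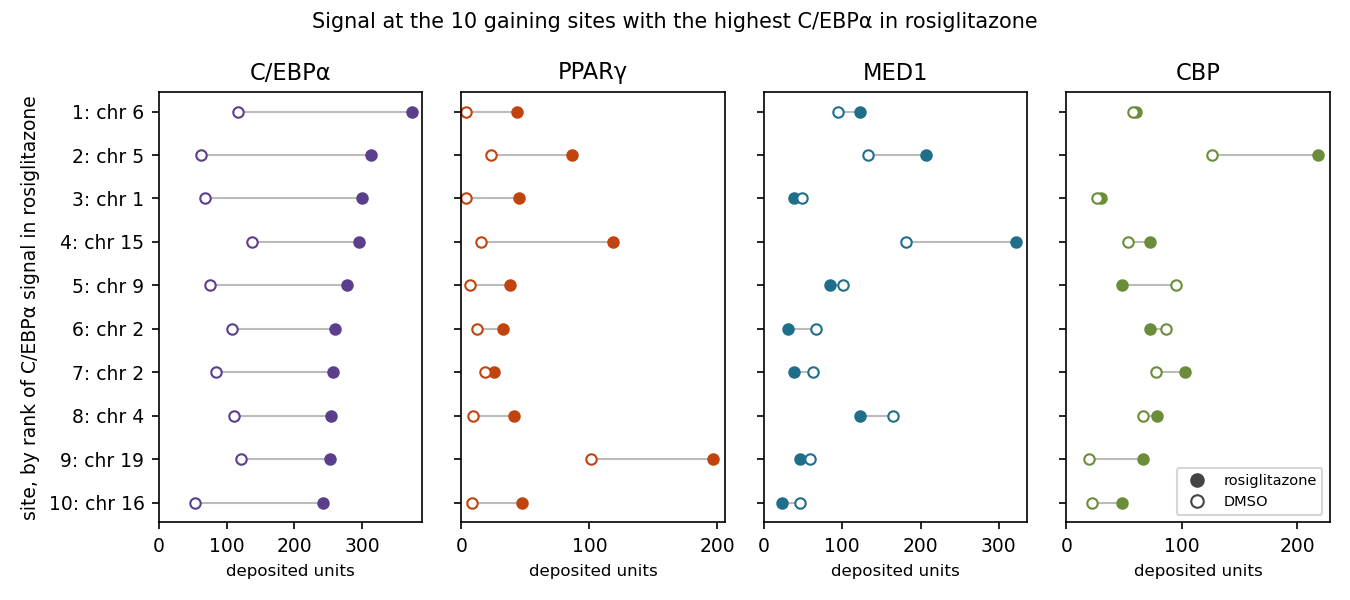
Deposited units (horizontal axes) of C/EBPα, PPARγ, MED1 and CBP at the 10 gaining sites with the highest C/EBPα signal in rosiglitazone (rows, numbered by rank, with their chromosome), 1 library per point. Filled points are rosiglitazone and open points DMSO. PPARγ is to the right in rosiglitazone at 10 of 10 sites, CBP at 8 and MED1 at 3. Summed over all C/EBPα peaks the ratios were 1.59 for PPARγ, 1.25 for CBP and 1.43 for MED1.

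The 10 sites with the highest C/EBPα ratio were all without a C/EBPα tag in DMSO, and 4 of them overlapped a PPARγ peak. The leading one, on chromosome 1 at 92938357-92938587, had 52.2 units in rosiglitazone and 0 units in DMSO, at least 7.88-fold higher against a floor of 3 tags in the library, with an exact lower bound of 6.13. PPARγ at that site was 34.9 units in rosiglitazone and 22.0 units in DMSO, a ratio of 1.59 whose interval included 1 (0.946 to 2.72). A different picture was seen on chromosome 4 at 134862526-134862756, where C/EBPα was 29.3 units in rosiglitazone and 0 units in DMSO. Every other factor was higher there, PPARγ at 111 units in rosiglitazone and 20.2 units in DMSO (ratio 5.47), MED1 at 214 units in rosiglitazone and 94.4 units in DMSO (2.27) and CBP at 97.0 units in rosiglitazone and 42.0 units in DMSO (2.31). The chromosome 5 site at 33545535-33545765 had 44.6 units of C/EBPα in rosiglitazone, 0 units in DMSO and no tag of MED1 or CBP in either treatment.

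PPARγ differed most on chromosome 2 at 170285292-170285522, with 46.6 units in rosiglitazone and 0 units in DMSO, at least 17.6-fold higher against the same floor of 3 tags, with an exact lower bound of 13.9. That site was near the edge for C/EBPα, with 39.5 units in rosiglitazone and 17.7 units in DMSO. On chromosome 9 at 61142921-61143151, PPARγ was 98.9 units in rosiglitazone and 3.52 units in DMSO, a ratio of 28.1 (10.7 to 105). MED1 there was 84.2 units in rosiglitazone and 35.0 units in DMSO, with an interval that included 1 (0.929 to 6.33). At the other end, the chromosome 12 site at 83347387-83347617 had 4.16 units of PPARγ in rosiglitazone and 21.1 units in DMSO, a ratio of 0.197 (0.0587 to 0.527), although C/EBPα was 62.4 units in rosiglitazone and 19.9 units in DMSO. C/EBPα and PPARγ thus differed in opposite directions at that site.

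Of the 5 sites with the highest CBP ratio among those with at least 20 CBP tags, the chromosome 2 site at 167521916-167522146 had intervals above 1 for all 3 other factors. MED1 was 811 units in rosiglitazone and 161 units in DMSO (ratio 5.05, 3.54 to 7.30), PPARγ 181 units in rosiglitazone and 48.4 units in DMSO (3.75) and CBP 78.8 units in rosiglitazone and 15.5 units in DMSO (5.10). Among sites with at least 20 MED1 tags the lowest MED1 ratio was on chromosome 6 at 84369358-84369588, with 0 units in rosiglitazone and 101 units in DMSO, at least 4.41-fold lower against that floor, with an exact upper bound of the ratio of 0.297. CBP at that chromosome 6 site was 127 units in rosiglitazone and 95.04 units in DMSO, a difference within counting error. All 5 sites with the lowest MED1 ratio had higher CBP in rosiglitazone, and 4 of them had higher PPARγ, mostly within counting error. The CBP interval lay above 1 only on chromosome 5 at 124026775-124027005 (1.17 to 11.1) and chromosome 1 at 135830934-135831164 (1.13 to 4.38). The PPARγ interval did so only at that chromosome 1 site (1.71 to 4.48). Over all C/EBPα peaks the summed ratios were also above 1, at 1.25 for CBP and 1.59 for PPARγ.

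The gaining sites were spread over 20 chromosomes, and most had no other gaining site within 10 kb. This spacing was not compared with that of other peaks, so it shows neither clustering nor dispersion. The gaining sites' share of tall peaks ran from 13.6% on chromosome 19 to 23.7% on chromosome 18. The summed PPARγ ratio was higher at gaining sites than at tall non-gaining peaks on 19 of 20 chromosomes, the exception being X, with 1.01 (0.829 to 1.24) at 17 gaining sites and 1.45 at the tall non-gaining peaks. Against tall non-gaining peaks of any C/EBPα ratio, the MED1 ratio was higher at gaining sites on 1 of 20 chromosomes and the CBP ratio on 13 of 20. Over all chromosomes, the MED1 ratio at gaining sites was 1.09 times that at tall peaks with a C/EBPα log2 ratio of 0.5 to 1. Another gaining site lay within 10 kb of 139 of the gaining sites (8.32%), as 68 pairs and 1 run of 3 on chromosome 9 at 60881368-60893085. Summed over that run, PPARγ was 141 units in rosiglitazone and 39.6 units in DMSO, a ratio of 3.55 (2.54 to 5.05), and MED1 was 91.8 units in rosiglitazone and 21.0 units in DMSO. The site at 60881368-60881598 carried most of these sums, with 120 units of PPARγ and 84.2 units of MED1 in rosiglitazone, and the other sites of the run had few tags.

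Lower peaks beside gaining sites were set against lower peaks beside tall non-gaining peaks. The 927 peaks under the height minimum that lay within 10 kb of a gaining site had a summed C/EBPα ratio of 0.973 (0.943 to 1.00), and the 3195 such peaks beside tall non-gaining peaks had one of 0.935 (0.920 to 0.950). These neighbours were taken for a low rosiglitazone signal, so their C/EBPα ratios are in part set by that choice. The MED1 ratio of those neighbours was 1.51 beside gaining sites and 1.48 beside tall non-gaining peaks, both above the 1.22 of the gaining sites themselves. PPARγ at the neighbours had a ratio of 1.60 beside gaining sites and 1.59 beside tall non-gaining peaks. In the 3 stretches of 1 Mb where unshared peaks carried a high signal of the other factor lay 6 gaining sites.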

How the data were processed

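ChIP-seq signals at C/EBPα and PPARγ peaks came from 2 tables covering 3T3-L1 cells in rosiglitazone or DMSO. FastQC, Bowtie, HOMER and edgeR and the mm9 build are named in the submitters' processing notes, with versions not given. Each signal column holds the authors' scaled tag signal per peak, per the file headers. The peak score and the fraction that HOMER calls the focus ratio are the authors' deposited values, used only to describe or filter peaks. Tags were recovered as whole multiples of the smallest step of each column (tolerance 0.02 steps). If values were scaled to 10 M tags a library, which was not stated, depths in rosiglitazone and DMSO were 12.0 M and 11.4 M tags for PPARγ, 7.85 M and 4.53 M for C/EBPα, 1.31 M and 2.86 M for MED1 and 1.65 M and 4.52 M for CBP.

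Ratios were computed from tags times units per tag, with Clopper-Pearson intervals, and ratios of ratios with Fisher's conditional intervals (R 4.3.3). Ratios of ratios at similar tags were pooled over classes of total tags by the Mantel-Haenszel method, with Robins-Breslow-Greenland intervals. Site ratios for 2-fold counts had 1 unit added. Python 3.11.15, NumPy 2.4.6, pandas 2.3.3, SciPy 1.17.1 and matplotlib 3.10.9 were used, and the interval code was tested on simulated data. With 1 library per treatment, no p-value was computed. The labels give 2 PPARγ samples per treatment, but the table has 1 PPARγ column per treatment that names neither; the MED1 column used as rosiglitazone is headed BRL, another code for that drug. High background was defined as 1 Mb stretches with at least 5 C/EBPα (or PPARγ) peaks not shared with the other list, whose median tags of the other factor were at least 3 times the median over all such peaks.

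The sites, lists and comparisons were chosen with earlier results of these data known. Named sites were the 10 with the highest C/EBPα ratio and signal, the 3 on each side of each threshold, the 10 highest and 5 lowest PPARγ ratios, the 5 highest and lowest MED1 and CBP ratios (20 tags or more), and the 5 largest runs; the text describes some of each. RNA polymerase II and input libraries were not analysed here, nor were genes or motifs.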

Additional observations from a re-analysis of the deposited data

How the results depend on the processing

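Of 65 alternative settings, 48 kept the result: the direction and the side of 1 of its interval for ratios of ratios, a value within the reported interval for summed ratios and shares, and a count within 1.5 times. Ratios of ratios moved within that: for PPARγ they ran from 1.11 without a PPARγ peak to 1.23. The 48 include settings that could change nothing. Centring on the median of all C/EBPα peaks left 395 sites 2-fold higher for MED1 and 420 for CBP, because those medians were 0.00. The MED1 ratio at gaining sites over that at tall non-gaining peaks turned above 1 when these were restricted by C/EBPα ratio. It was 1.09 for a C/EBPα log2 ratio of 0.5 to 1 and 1.02 (interval 0.986 to 1.05) for 0 to 1. Tall non-gaining peaks with a lower C/EBPα ratio had a higher MED1 ratio of rosiglitazone to DMSO. The number of gaining sites was 656 at a fold of 3, 4818 at 0.5 times the height minimum and 440 at 2 times it. Asking for at least 20 tags, which leaves fewer sites to count, gave 408 sites 2-fold higher for PPARγ, 81 for MED1 and 96 for CBP. Scaling each factor to its sum over all other C/EBPα peaks gave summed ratios of 1.20 for PPARγ, 1.1 for CBP and 0.847 for MED1, the last turned below 1 by the scaling itself, since MED1 was 1.45 times as high in rosiglitazone at those peaks. The PPARγ ratio was 1.96 at sites whose C/EBPα interval lay above 1; the cause was not tested. Overlap with PPARγ peaks was 48.6% when 0.5 of the shorter peak had to be shared, 34.1% for centres within 50 bp and 41.6% for higher-scoring PPARγ peaks, all stricter rules, and 23.2% of sites had a neighbour within the wider 50 kb. The CBP ratio over that at tall non-gaining peaks was 1.05 without a PPARγ peak, with an interval reaching below 1 (0.991 to 1.12). Some settings were chosen after seeing the data. These were ratios of ratios at similar tags, split by PPARγ peak or restricted by C/EBPα ratio, and 2-fold counts scaled to the summed ratio. Counts of gaining sites with no pseudocount, under summed-ratio scaling or outside high background were also chosen then. No paired analysis was possible because each factor has 1 column per treatment and the PPARγ columns name no replicate. Motif windows and gene lists were not run. The shallow MED1 and CBP libraries, with a median of 2 tags per gaining site in rosiglitazone, limit statements on single sites.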
